A study of Homo sapiens with 97 samples.

Results

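Nascent strand sequencing (NS-seq) peaks in the interior of the chromosomes came close together in 134 zones, which held 314 of the 3750 peaks in the deposited list. A peak was called interior when its midpoint lay more than 5 Mb from the first and last base with a listed replication timing class on its chromosome. Chromosomes 1 to 16, 18, 20, 21 and X were used, without chromosome 7 below 7 Mb and chromosome 8 from 142 Mb. This left 1709 interior peaks. Peaks at most 10 kb from the next peak were joined into zones, and 18.4% of the interior peaks belonged to one. The other 1395 interior peaks are called solitary here. The peak positions themselves chose the zones, so their number, size and spacing are given as a description.

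The study asked how human cell lines replicate their DNA near double-strand breaks. The peaks come from AsiSI-U2OS, a line derived from the osteosarcoma line U2OS in which the restriction enzyme AsiSI cuts the genome when 4-hydroxytamoxifen (4OHT) is given. Labelled as wild type, these cells gave 2 NS-seq samples after 300 nM 4OHT for 4 h, 2 samples with no treatment and 2 inputs with no treatment. The peak list is named as merged and was deposited with an input sample, so no peak could be assigned to treated or untreated cells and no value has a replicate. Timing came from lists of early, mid-early, mid-late and late regions deposited with untreated wild-type U2OS cells in G1 and S phase, pooled by the authors. It is therefore the timing of U2OS and not of the line with the enzyme. A separate list held 129 AsiSI sites from HCT116 colorectal carcinoma cells that lacked LIG4, an end-joining ligase, carried a degradable cohesin subunit and had received 4OHT. The read depth behind all these lists is unknown.

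A replication origin is a place where the helicase is loaded in G1 and can be activated in S phase. NS-seq enriches short new DNA strands that start with an RNA primer, which resist the exonuclease that removes other DNA, and so marks places where strands were started. Origins often lie in groups, and early replicating DNA is known to hold more of them and more active genes than late replicating DNA. A border between timing classes marks a place along the chromosome where the listed time of replication changes.

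Most zones were pairs of peaks. There were 109 zones of 2 peaks (81.3%), 17 of 3 peaks and 5 of 4 peaks, and 1 zone each had 5, 7 and 13 peaks. The median span was 6.60 kb, with quartiles of 3.79 and 10.1 kb and a range from 1.33 to 31.5 kb. All 134 zones together spanned 971 kb, or 0.0377% of the 2575 Mb of interior sequence. Every peak in the list is 1000 bp wide, and neighbouring peaks of a zone started a median of 4.13 kb apart, between 0.333 and 10.973 kb. Of the 180 neighbouring pairs, 27 (15%) overlapped, and 16 zones were a single unbroken block of overlapping peaks. When overlapping peaks were first joined into 1 peak, 118 zones were left.

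**Figure D1:**
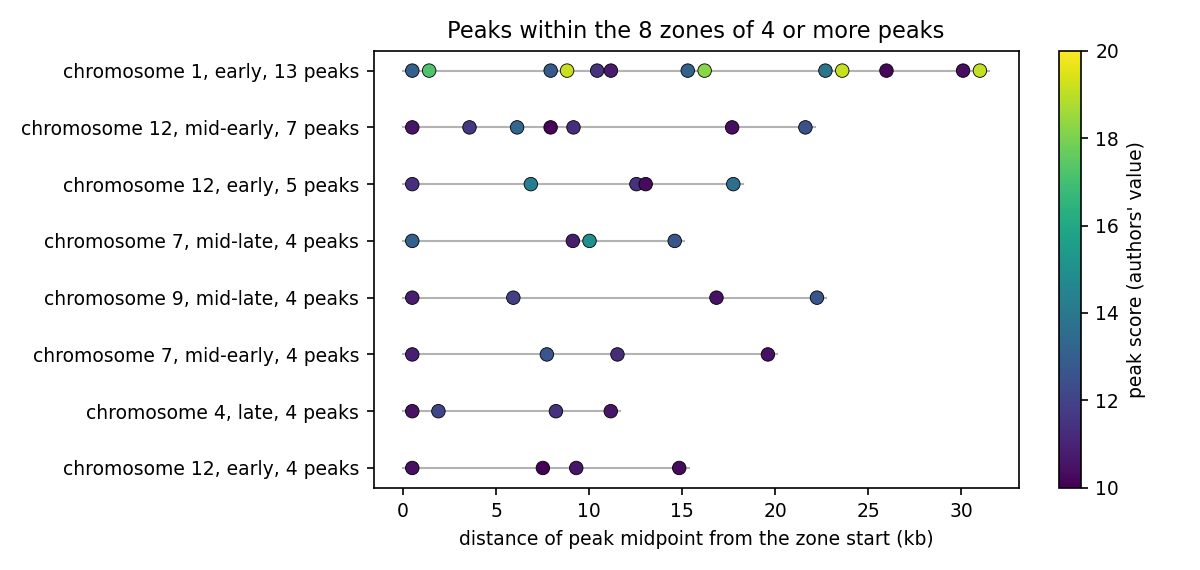
Peaks of the 8 zones with 4 or more peaks, each at the distance of its midpoint from the zone start in kb (horizontal axis) and coloured by the authors' score; grey lines span the zones. The zone of 13 peaks on chromosome 1 holds 5 pairs in which a lower-scoring peak is followed closely by a peak scoring 17.2 to 19.2, and no other zone shown has a score above 15.

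The largest zone, on chromosome 1 from 161410314 to 161441813 (hg19), had 13 peaks in 31.5 kb and a regular layout. Pairs of neighbours were picked, after the values were seen, by starts between 850 and 950 bp apart, so their like spacing follows from that choice. In the 5 pairs the second peak started 906, 881, 907, 903 and 905 bp after the first. From one pair to the next the first peaks were 7437, 7365, 7397 and 7396 bp apart, so the same unit came back along the zone at almost the same length. The score is a value per peak given by the authors on a scale that the sources used here do not state. The first peaks of the pairs scored 13.0, 12.8, 13.1, 13.8 and 10.3, and the second peaks scored 17.2, 19.2, 18.2, 19.1 and 19.1. In 5 of 5 pairs the second peak was higher, by 4.18 to 8.75. The 3 remaining peaks scored 11.4, 10.7 and 10.2, and the first 2 of them started 738 bp apart. A border between early and mid-early sequence ran through this zone 0.463 kb from its midpoint, with the first 6 peaks on the mid-early side and the last 7 on the early side. Whether reads from near-identical copies of a sequence contributed to the repeated layout was not tested, since no hg19 sequence was used here.

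The next largest zones lay close to each other on chromosome 12. A zone of 7 peaks (6930657 to 6952779) stood in a mid-early domain of 82.2 kb, where a domain is a run of adjoining intervals of 1 timing class. Its scores ran from 10.1 to 13.2. The zone of 5 peaks at 6874769 to 6893016 and the zone of 4 peaks at 6637429 to 6652772 were both early, with best scores of 14.2 and 10.6. These were 3 of 8 zones with 26 peaks between 6382585 and 7314962, a stretch of 932 kb in which 7 zones were early and 1 was mid-early. No other run of zones less than 500 kb apart held as many. On chromosome 11, 6 early zones with 13 peaks lay between 64018189 and 64598156. On chromosome 3, 4 zones with 9 peaks lay between 183977865 and 184329583, and on chromosome 7, 3 zones with 11 peaks lay between 44136366 and 44353307.

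Zones of 4 or more peaks outside early sequence had scores under 15. On chromosome 7 a mid-late zone of 4 peaks (44257326 to 44272427) sat in a domain of only 29.7 kb, with a first peak in the mid-early domain beside it, and a mid-early zone of 4 peaks lay at 44136366 to 44156474. A mid-late zone of 4 peaks on chromosome 9 (115822618 to 115845362) had nearly symmetrical spacings of 5431, 10914 and 5400 bp. The late zone with most peaks, 4, was at 49300178 to 49311843 on chromosome 4, and its scores did not exceed 12.1. Of the zones with 3 peaks, ordered by summed score, the first 2 lay outside early sequence. A late zone on chromosome 7 (56438611 to 56442254), far inside a late domain of 1901 kb, scored 21.9, 21.1 and 16.0. A mid-late zone on chromosome 8 (86566209 to 86574075) scored 19.0, 13.2 and 18.8.

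A pair of late zones on chromosome 9 had mirrored spacings. In the zone at 44320673 to 44327482 the peaks were 4127 and then 1683 bp apart, and in the zone at 46762321 to 46769184 they were 1736 and then 4128 bp apart. The spacings differed by at most 53 bp when 1 zone was read backwards. Among 146 pairs of zones with an equal number of peaks, 3 or more, each compared in both directions, this was the only match within 150 bp. As for the zone on chromosome 1, the part of copied sequence was not tested.

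Many zones lay near another zone or near further peaks. Another zone lay within 500 kb of 62 of the 134, and within 100 kb of 28. No matching share was computed for solitary peaks or for sequence. A zone had a median of 4 further peaks within 500 kb of its midpoint, and a solitary peak had 2. No further peak was found in that window for 8 zones (5.97%) and for 330 solitary peaks (23.7%). Solitary peaks were defined by having no close neighbour, so part of this difference follows from the rule. The 134 zones fell into 109 timing domains, and 19 domains, 14 of them early, hosted 2 or more zones and 44 zones in all.

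Chromosomes differed in how many zones they held. The densest were chromosome 10 with 12.7 zones per 100 Mb of interior sequence, chromosome 12 with 10.5, chromosome 21 with 10.4 and chromosome 11 with 9.60. The X chromosome had 0.688 per 100 Mb, and chromosome 13, with 10 interior peaks, had none. The order was not that of the solitary peaks. Chromosome 20 had the highest density of solitary peaks, 138 per 100 Mb, but only 7.59% of its interior peaks lay in zones. Chromosome 16 had 88.4 solitary peaks per 100 Mb and a single zone. On chromosome 21, 6 of 11 interior peaks were in zones.

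Zones were most frequent in early sequence, as solitary peaks were. By midpoint, 62 zones (46.3%, 95% exact interval 37.6 to 55.1%) were early, 34 (25.4%, 18.3 to 33.6%) mid-early, 24 (17.9%, 11.8 to 25.5%) mid-late and 14 (10.4%, 5.83 to 16.9%) late. These Clopper-Pearson intervals cover counting error only and treat zones as independent, which neighbouring zones may not be. Of the solitary peaks, 41.6% were early and 7.67% late, both inside the intervals of the zones. Of interior sequence, 24.7% was early and 27.2% late, both outside them. Early sequence held 9.75 zones per 100 Mb, mid-early 6.06, mid-late 3.54 and late 2.00. Without mid-early intervals longer than 1 Mb, which held no zone, the mid-early density was 7.23. The early density was 4.88 times the late density (2.70 to 9.44) for zones and 5.97 times (4.85 to 7.41) for solitary peaks. The share of interior peaks that lay in zones was 19.3% in early, 17.2% in mid-early, 15.8% in mid-late and 24.1% in late sequence. Of the 34 late peaks in zones, 26 lay within 5 Mb of a mid-early interval longer than 1 Mb. Of the 107 late solitary peaks, 30 did. Farther from such intervals, 8 late peaks were in zones and 77 were solitary, against 137 and 555 early ones, so the high late share did not hold there. All peaks of a zone shared 1 class in 130 zones, and 4 zones had peaks in 2 classes.

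**Figure D2:**
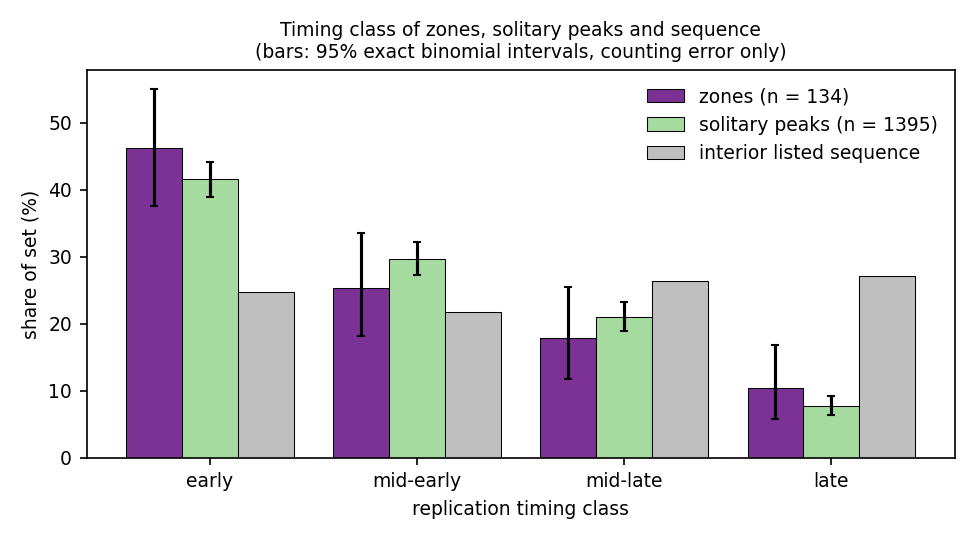
Share of zones, of solitary peaks and of interior sequence (vertical axis, percent) in each timing class; black bars are 95% exact binomial intervals for counting error, and sequence has none. Early zones make up 46.3% and late zones 10.4%, against 24.7% and 27.2% of sequence.

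The order of early over late density did not hold on every chromosome. Zones were denser in early sequence on 11 chromosomes and in late sequence on 5, and 4 chromosomes had no zone in either class. Solitary peaks were denser in early sequence on all 20. Chromosome 9 had 4 late and 2 early zones, chromosome 21 had 2 late and 0 early zones, and chromosome 12 had 0 late and 11 early zones. Few zones set the order on several chromosomes. Chromosomes 4 and 18 each had 1 late and 0 early zones, chromosome 8 had 2 late and 0 early, and chromosome 16 had 1 early and 0 late. With each chromosome left out in turn, the ratio of densities for zones stayed between 4.11 and 6.66. With peaks joined at gaps of up to 50 kb it was 7.64 (4.51 to 13.8).

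Late and mid-late zones were more frequent near very long mid-early intervals than elsewhere. The mid-early list has 24 intervals longer than 1 Mb, 151 Mb in all. No zone and no solitary peak lay inside these intervals (the longest mid-early domain hosting a solitary peak was 728 kb). Around them, 10 of 14 late zones (71.4%, 41.9 to 91.6%) and 9 of 24 mid-late zones (37.5%, 18.8 to 59.4%) had such an interval within 5 Mb, a distance chosen after the values were seen. The same held for 4 of 34 mid-early zones and 1 of 62 early zones. Of the solitary peaks, 28.0% of late and 17.01% of mid-late ones were that close, as was 9.98% of late and 7.50% of mid-late sequence. Late zones had a density of 14.3 per 100 Mb within 5 Mb and 0.634 farther away, a ratio of 22.6, and late solitary peaks had 42.9 and 12.2, a ratio of 3.52. With a distance of 2 Mb or 10 Mb the ratio for late zones was 25.5 or 17.7. They made up 90.7 Mb of the 561 Mb of mid-early interior sequence. What these wide intervals are is not stated in the sources used here. Whether reads could be mapped in them, and their part in the density of zones, was not tested.

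**Figure D3:**
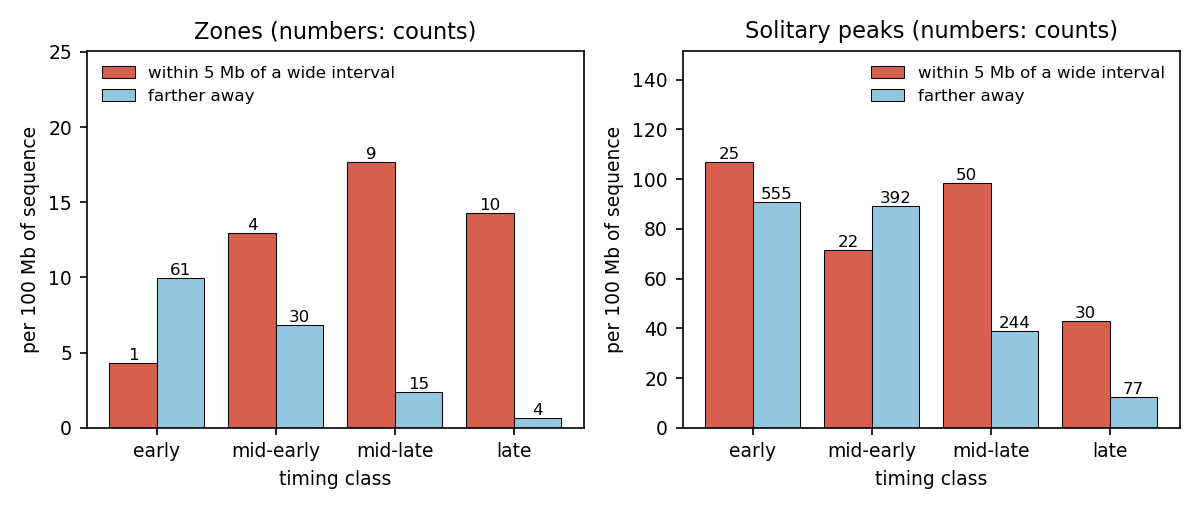
Zones (left) and solitary peaks (right) per 100 Mb of sequence outside the wide mid-early intervals, by timing class, within 5 Mb of such an interval (red) and farther away (blue); numbers over the bars are counts, and the vertical scales differ. Late zones number 10 within 5 Mb and 4 farther away, although most late sequence lies farther away.

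Chromosome 9 had 6 of the 24 zones near a wide interval and chromosome 2 had 5. Chromosomes 10 and 21 had 3 each, chromosomes 4 and 20 had 2 each, and chromosomes 7, 11 and 18 had 1 each. They include the late zones on chromosomes 4, 7 and 9 described above. The 4 late zones farther away were 2 on chromosome 8 that share a domain (from 140759709 and from 140805734), 1 on chromosome 10 (from 50817067) and 1 on chromosome 2 (from 5692601). Without sequence within 5 Mb of a wide interval, 110 zones remained, of which 55.5% were early and 3.64% late. The early density was then 15.7 times the late density for zones (5.83 to 59.5) and 7.42 times for solitary peaks. In both cases the interval for zones includes the ratio of solitary peaks.

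The distance of a zone from the nearest timing border was close to that of solitary peaks. The median, from zone midpoint to border, was 60.9 kb for zones, with quartiles of 21.02 and 157 kb, and 62.0 kb for solitary peaks. A position in interior sequence had a median of 89.3 kb, or 83.7 kb outside the wide intervals. Within 50 kb of a border were 45.5% of zones (36.9 to 54.3%), 44.0% of solitary peaks and 35.4% of sequence. Split by class, the median for zones was 118 kb in early, 35.6 kb in mid-early, 35.7 kb in mid-late and 99.1 kb in late sequence. Early sequence itself had a median of 118 kb, so by the median early zones were no closer to a border than early sequence. Their spread was wider. Quartiles were 26.4 and 327 kb for early zones, 41.4 and 305 kb for early solitary peaks and 42.85 and 290 kb for early sequence. Late sequence had a median of 273 kb, and late zones and late solitary peaks (99.3 kb) were both nearer. Mid-late solitary peaks had a median of 51.8 kb and mid-late sequence 59.0 kb.

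**Figure D4:**
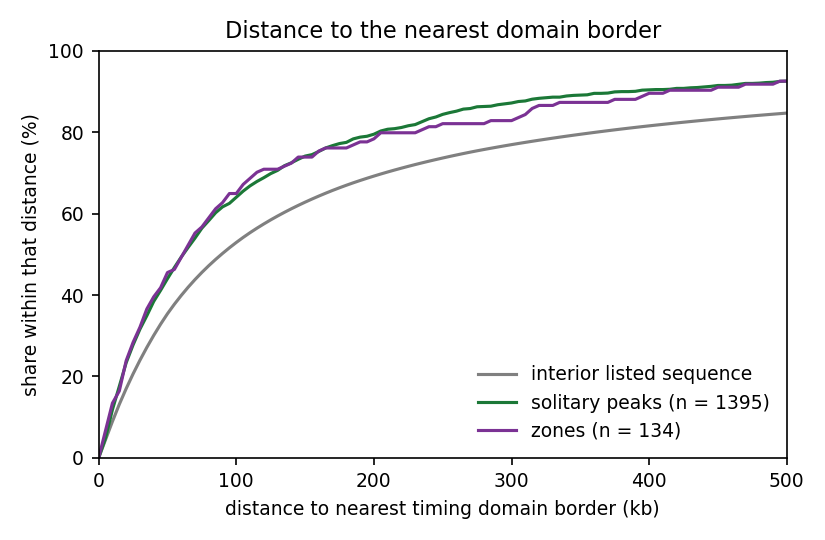
Share of zones, solitary peaks and interior sequence (vertical axis, percent) within a given distance in kb of the nearest timing border (horizontal axis). The curves of zones and solitary peaks run together, with 64.9% and 64.0% within 100 kb, above the curve of sequence with 52.9%.

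The nearest border of a zone was most often one between early and mid-early sequence, in 87 zones (64.9%, 56.2 to 73.0%). The same was true of 61.4% of solitary peaks and of 33.5% of sequence. All 62 early zones had this type of nearest border, so much of the contrast with sequence restates the early share of zones. The border between mid-late and late sequence was nearest for 22 zones (16.4%), 13.3% of solitary peaks and 38.7% of sequence. A border lay inside 4 zones, and multiplying the span of all zones by the 4.46 borders per Mb of interior sequence gives 4.33. Besides the zone of 13 peaks and the mid-late zone of 4 peaks, these were a zone of 3 peaks on chromosome 1 (31122192 to 31128829) and a zone of 2 peaks on chromosome 8 (86749206 to 86757071). The zone of 3 peaks held a peak of score 21.7 in early sequence, 2 of its peaks being early and 1 mid-early. Some borders lay just outside the span of a zone, and their distances are again from the zone midpoint, so zone edges were nearer. For zones of 2 peaks and a border between early and mid-early sequence, the midpoint came as near as 2.10 kb (chromosome 1, 27921450 to 27925352), 4.24 kb (chromosome 11, 64018189 to 64023493) and 4.52 kb (chromosome 5, 175457342 to 175464694). The midpoint of a mid-early zone of 3 peaks on chromosome 4 (6580428 to 6587290) lay 4.66 kb from a border with mid-late sequence, in a domain of 60.5 kb.

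At the other extreme were zones deep inside early domains. The zone farthest from a border, on chromosome 7 at 100607955 to 100611675, lay 1265 kb from it in an early domain of 2785 kb. A pair of zones on chromosome 15 (65621459 to 65627129 and 65678555 to 65689422) shared an early domain of 4377 kb and lay 1138 and 1197 kb from its nearest border. A zone of 3 peaks on chromosome 10 (104156775 to 104179276) lay at 1149 kb, and a zone on chromosome 12 (49722441 to 49727347) at 786 kb. Early zones stood in domains with a median length of 787 kb, against 663 kb for early solitary peaks and 618 kb for early sequence. Late zones stood in domains with a median of 389 kb and quartiles of 211 and 899 kb, against a median of 693 kb for late solitary peaks and 1459 kb for late sequence.

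Mid-early zones often lay in a gap between early domains. Of the 34 mid-early zones, 22 (64.7%, 46.5 to 80.3%) were in a domain with an early domain on both sides. This was so for 51.2% of mid-early solitary peaks, which is inside the interval of the zones. It was so for 25.4% of mid-early sequence, or 30.3% without the wide intervals, which is outside it. Counted per zone, the gaps holding these 22 zones had a median length of 127 kb, from 22.1 to 439 kb. The longest, on chromosome 10, held 2 of the zones and so counts 2 times. The zone of 7 peaks on chromosome 12 was in another of these gaps. Mid-early domains that were earlier than both neighbours held 2 of 34 zones (5.88%, 0.720 to 19.7%), 15.9% of solitary peaks and 40.2% of sequence, or 29.3% without the wide intervals. Of the 24 mid-late zones, 12 (50%, 29.1 to 70.9%) lay between earlier neighbours, and the interval includes the 55.4% of solitary peaks and the 37.3% of sequence.

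**Figure D5:**
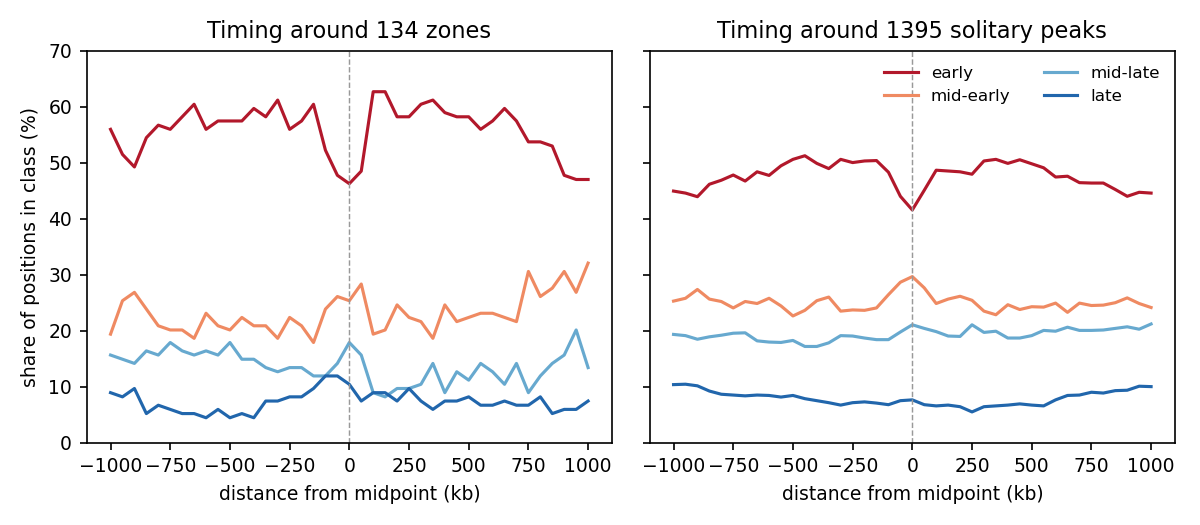
Timing class of positions from 1000 kb before to 1000 kb after the midpoints of 134 zones (left) and of 1395 solitary peaks (right), in steps of 50 kb; lines give the share of positions in each class in percent. The early share is lower at the midpoint (46.3% for zones, 41.6% for solitary peaks) than 300 kb to either side (61.2% and 60.4% for zones).

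The sequence around zones was early more often than the zones themselves. At the zone midpoint 46.3% of positions were early, at 300 kb before and after it 61.2% and 60.4%, and at 1000 kb 56.0% and 47.0%. Solitary peaks showed a dip of the same shape, from 50.6% and 50.3% at 300 kb to 41.6% at the peak. The late share was 10.4% at the zone midpoint, 11.9% at 100 kb before it, 8.96% at 100 kb after it and 7.46% at 300 kb on both sides.

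The scores of peaks in zones were close to those of solitary peaks. Their median was 11.8 with quartiles of 10.8 and 13.2, and that of solitary peaks was 11.6 with quartiles of 10.7 and 13.5. The means were 12.5 ± 2.52 (SD over 314 peaks) and 12.5 ± 2.48 (SD over 1395 peaks). A score of 15 or more was given to 42 peaks in zones (13.4%) and to 212 solitary peaks (15.2%). The lowest score of any interior peak was 10.0, and both medians lay near it. Whether weaker peaks were left out of the list is not stated, so a solitary peak may have had an unlisted neighbour. By class, the median score in zones was 11.5 in early, 11.8 in mid-early, 12.4 in mid-late and 12.0 in late sequence, and mid-late solitary peaks too had the highest median of their classes, 12.2. In zones of 2 peaks the scores differed by a median of 1.59. The highest score in a zone, 22.9, was on chromosome 8 at 140759709 to 140760708 in late sequence. It was followed by 21.9 in the late zone on chromosome 7, the 21.7 on chromosome 1, 21.2 in a mid-late zone on chromosome 7 (50780886 to 50790874) and 21.1 in the late zone on chromosome 7 again.

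None of the zones lay at one of the 129 AsiSI sites mapped in HCT116 cells. Within 50 kb of a site there were 0 of 134 zones, for which the exact interval reaches 2.72%, and 11 of 1395 solitary peaks (0.789%), which is inside it. The share of interior sequence that near to a site was not computed, so the absence is not read as a trait of zones. The nearest zone, on chromosome 8 at 125565087 to 125571199, was mid-late and 62.2 kb from a site. The distance exceeded 1 Mb for 128 zones (95.5%, 90.5 to 98.3%) and for 89.0% of solitary peaks. The median distance was 11498 kb for zones and 7569 kb for solitary peaks. The sites come from another cell line, so they do not show where breaks formed in the cells that gave the peaks.

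Some pairs lay close to the limits of the rule. The pair just inside the limit of 10 kb, on chromosome 15 at 78035060 and 78046033, had a gap of 9973 bp and scores of 11.7 and 10.8. Next inside were pairs on chromosome 10 with a gap of 9899 bp and on chromosome 11 with 9720 bp. Just outside were pairs on chromosome 20 (39984111 and 39995457) with 10346 bp, on chromosome 12 with 10447 bp and on chromosome 1 with 10536 bp. At the 5 Mb margin, a close pair on chromosome 5 at 4.84 Mb was left out, and the zones nearest inside it lay at 5.38 Mb on chromosome 21 and 5.45 Mb on chromosome 5.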

How the data were processed

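The NS-seq list, as deposited by the authors, holds the position and the score of each peak, and the other lists hold positions only. The build hg19 and the tool MACS2 are named in the submitters' processing notes, without version or role. Not given in the sources used here are the aligner, the filters, the libraries merged and the division into timing classes. Positions are printed counting from 1.

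Adjoining timing intervals of 1 class were joined into domains. Zones and peaks were placed by their midpoints. Interior sequence was described from all its 100 bp positions. The zones, the lists and the comparisons were chosen with earlier results of these data known. No test was made, because the merged list has no samples to compare. Intervals of shares and of density ratios are exact (Clopper-Pearson, 95% confidence) and cover counting error only. Those of medians, used under other settings, come from ranked values with binomial limits. For the difference of median scores, the solitary median was held fixed and peaks of a zone were treated as independent. Read depth is unknown.

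The zones named are the 10 with most peaks, the 5 longest, the 3 with most peaks per class, those with the 5 highest peaks, the 5 nearest to an outer border (early with mid-early, or mid-late with late) and the 5 farthest from any border, and those at the limits of the rule. The zones holding a border, the late zones far from wide intervals, the mirrored zones, the groups of zones and the zone nearest to an AsiSI site were chosen after their values were seen. Joining, timing and border steps were tested on simulated data. Alternatives covered the gap, the margin, the score, short domains, border types and each chromosome left out in turn. Sequence and gene annotation of hg19 were not used here, so no gene is named. Python 3.11.15, numpy 2.4.6, pandas 2.3.3, scipy 1.17.1 and matplotlib 3.10.9 were used.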

Additional observations from a re-analysis of the deposited data

How the results depend on the processing

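Of 287 values under other settings, 269 of them planned, 267 moved by less than their error or by less than 1.5 times for a count, and 20 moved by more. Most of these values come from leaving out 1 chromosome at a time, which keeps most zones, and none of those moved. Leaving mid-early intervals longer than 1 Mb out of the sequence could not change early or late values. The count of unmoved values is therefore no measure of stability. A gap of 5 kb put 12.8% of interior peaks in zones of median span 4.30 kb. A gap of 20 kb gave 27.4%, a span of 12.7 kb and 11.2% of zones holding a border. A gap of 50 kb gave 258 zones with 40.7% of peaks, a span of 23.9 kb and 17.4% holding a border. These changes follow from longer or shorter joining. The difference of median scores, zones minus solitary peaks, was 0.174 at 10 kb and -0.0399 at 50 kb. The value at 50 kb lies inside the interval at 10 kb, -0.0845 to 0.405, and so counts as not moved. The early over late density of zones was 4.52, 6.53 and 7.64 with gaps of 5, 20 and 50 kb, and 4.31 and 6.37 with margins of 2 and 10 Mb. Keeping peaks at or above the median score of 11.7 left 46 zones with 12.2% of the peaks, a median of 42.5 kb to a border and 8.70% holding one, from fewer peaks. The distance to a border was 89.3 kb with domains under 50 kb dissolved and 701 kb with borders only between the earlier and the later pair of classes, since fewer borders were left. Taking only the best peak of each zone raised the difference of median scores to 1.34, which the choice of the best peak brings about. The settings added after seeing the data gave 55.5% early and 3.64% late zones and a density ratio of 15.7 without sequence near wide mid-early intervals, and 16.1% of peaks in zones with overlapping peaks joined first; the cause of the former was not tested. With each of 20 chromosomes left out, there were 118 to 134 zones, 42.1 to 48.4% early, 8.06 to 11.7% late, and a median distance to a border of 56.2 to 65.0 kb. The planned comparisons of base composition and gene starts were not run, as they need hg19 sequence or genes. No paired analysis was possible because the merged peak list has no columns for the replicates. Unknown depth and 14 late zones limit what can be said of late sequence.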
